A study of Saccharomyces cerevisiae with 12 samples.

Results

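The pentose phosphate isozyme genes of budding yeast (Saccharomyces cerevisiae) were followed in 3 gene deletions and in wild type. The set holds 10 genes, out of 6252 with a probe on the array, chosen by gene name or locus: ZWF1 (YNL241C), SOL3 (YHR163W), SOL4 (YGR248W), GND1 (YHR183W), GND2 (YGR256W), RKI1 (YOR095C), TKL1 (YPR074C), TKL2 (YBR117C), TAL1 (YLR354C) and NQM1 (YGR043C). Each of them had 1 probe printed in 2 spots. All 10 stood above background on all 12 arrays and entered the test. Total RNA was hybridized to one-colour Cy3 arrays, 3 per group. The groups were the hsp31 deletion, the hsp32 deletion, the hsp33 deletion and wild type. All are labelled as cultures in synthetic complete medium taken at the diauxic shift, when glucose runs out. No reading of glucose or cell density at harvest was used here. Whether the groups had reached the same point of that shift was not tested, and genotype and harvest stage cannot be told apart. The labels give a genotype only and do not name the parent strain, how a deletion was made or whether it is 1 clone. They do not say that replicates are separate cultures, so the p-values rest on the spread among these samples alone, which may be technical.

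The pentose phosphate pathway takes glucose 6-phosphate through an oxidative branch, which yields NADPH for biosynthesis and antioxidant defence, and a non-oxidative branch, which interconverts sugar phosphates and yields ribose 5-phosphate for nucleotides. Several steps are encoded by a pair of related genes. SOL3, GND1, TKL1 and TAL1 are the isozymes known for growth on glucose, whereas SOL4, GND2, TKL2 and NQM1 are known to be induced as glucose is exhausted or under stress. The deleted genes encode small proteins related to human DJ-1, of which Hsp31 is the best studied and removes methylglyoxal.

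Array brightness and the targeted genes were examined before the members. The median spot had a brightness of 401 to 812, with local backgrounds of 64 to 88. Within groups, arrays correlated across genes at r = 0.980 or more; genes are not independent replicates. On replicate 2 of the hsp32 deletion 80.3% of probes stood above background, the lowest share of the 12 arrays, and 97.1% was the highest. The limit for that call, set from negative control spots, was 284.4 on this array and 35.4 to 53.6 on the others. Its median spot was not dim, at 741.5. HSP31 was below background on all 3 arrays labelled hsp31 deletion and at least 44.6-fold lower than in wild type. HSP32 and HSP33, near-identical genes at chromosome ends, were above background on every array and lower in all 3 deletions, so they did not check the other labels. The uracil marker gene URA3 was at least 219-fold higher in the arrays labelled hsp32 deletion than in wild type, where it was below background. In the hsp31 and hsp33 deletions URA3 stayed close to wild type, with log2 changes of 0.0786 and 0.0637 (each ± 0.13). It was above background on 1 of the 3 hsp31 deletion arrays and on no hsp33 deletion array. High URA3 and the hsp32 deletion label thus fell on the same arrays, and no comparison with the hsp32 deletion can separate them. The part of that marker in the results below was not tested. A level is given below as a normalized log2 signal, and levels of different genes are not set against each other, since each probe has its own efficiency.

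All 10 genes differed from wild type in each of the 3 deletions. The isozymes SOL3, GND1, TKL1 and TAL1, with the isomerase gene RKI1, rose in every deletion. Their counterparts SOL4, GND2, TKL2 and NQM1 fell, as did ZWF1, the entry point of the pathway. For each gene and deletion the 3 arrays of the deletion lay wholly above or wholly below the 3 wild-type arrays. The same held for 63.9%, 75.9% and 72.0% of all tested genes in the deletions of hsp31, hsp32 and hsp33. The test was limma's moderated test on all 12 arrays, with Benjamini-Hochberg adjustment over the 5863 genes tested and an adjusted p under 0.05 as the threshold. The number of genes past that threshold was large throughout. In the hsp31 deletion 25.7% of the tested genes rose and 30.4% fell, and in the hsp32 deletion 33.3% rose and 36.7% fell. In the hsp33 deletion 29.0% rose and 32.4% fell. The 10 members split 5 to 5 in each comparison. Their median log2 changes were -0.21, -0.23 and -0.40 in the deletions of hsp31, hsp32 and hsp33, against -0.03 or -0.04 over all tested genes. With this split the median is the midpoint between RKI1, the smallest rise, and ZWF1, the smallest fall, and no trend of the set is read from it. With each array scaled to its 75th percentile in place of quantile normalization, 61.1%, 61.3% and 61.8% of the called genes were higher, against 45.8%, 47.6% and 47.2%. The same 3 wild-type arrays serve all 3 comparisons, so these are not independent of each other. In bulk RNA, fewer cells with a transcript and less of it per cell cannot be told apart.

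**Figure D1:**
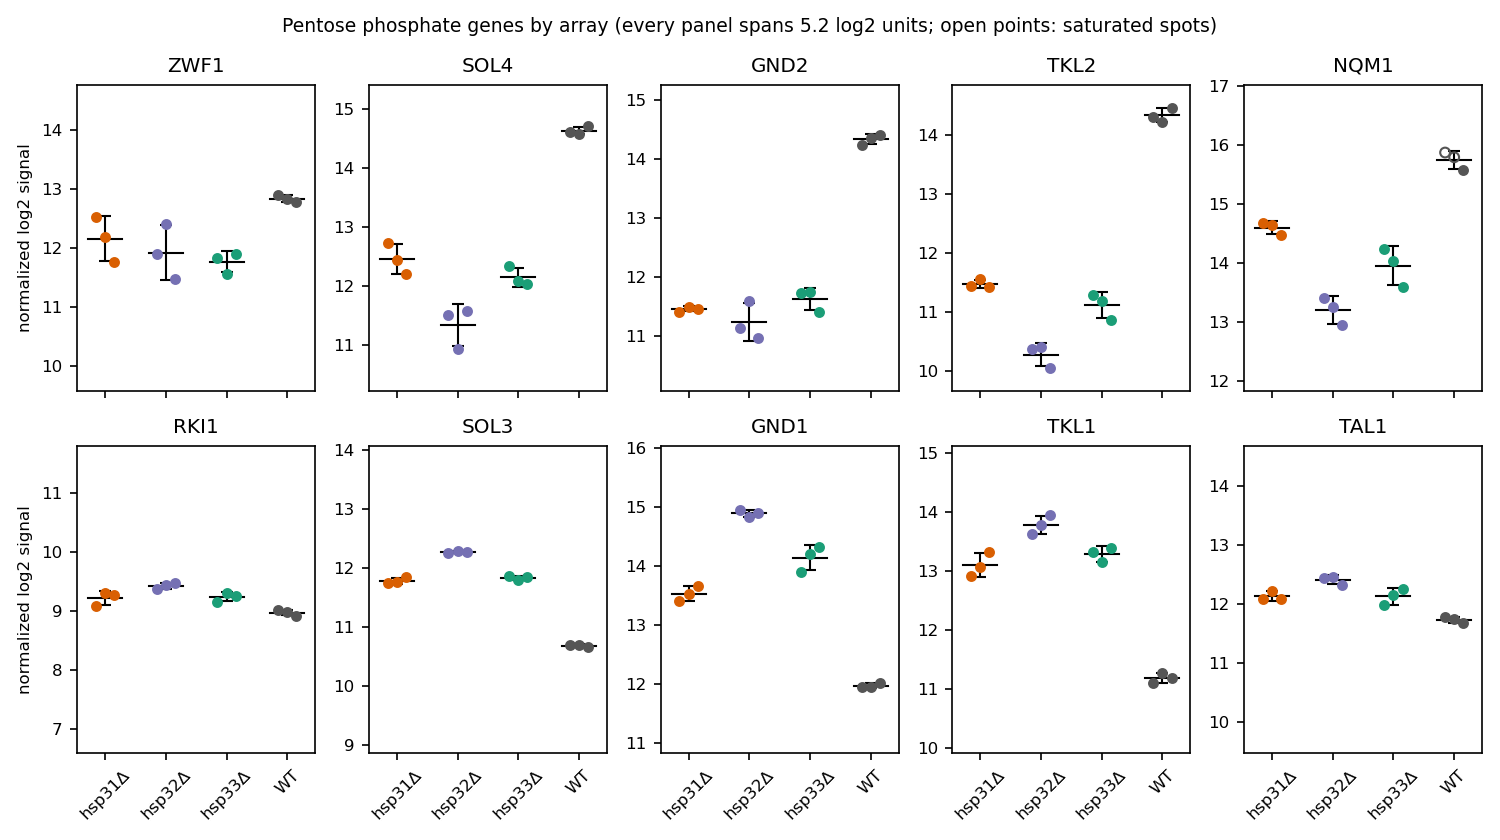
Normalized log2 signal of each gene on each of the 12 arrays, with the group mean and SD (n = 3) as a line and bar, for the hsp31, hsp32 and hsp33 deletions and wild type (WT). In the upper row every deletion array lies below wild type, and in the lower row every deletion array lies above it; the 2 open wild-type points of NQM1 come from saturated spots.

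ZWF1 encodes glucose-6-phosphate dehydrogenase, the first and committing enzyme of the oxidative branch, and has no isozyme. Its log2 signal was 12.53, 12.19 and 11.76 in the hsp31 deletion, 11.89, 12.41 and 11.47 in the hsp32 deletion and 11.84, 11.57 and 11.90 in the hsp33 deletion, against 12.89, 12.83 and 12.78 in wild type. Every deletion array was lower than every wild-type array, and the hsp31 and hsp32 deletion arrays were more spread than any others for this gene. ZWF1 fell 1.60-fold in the hsp31 deletion (log2 -0.67 ± 0.21, SE of the limma fit, n = 3; limma adjusted p = 0.0148). It fell 1.88-fold in the hsp32 deletion (-0.91 ± 0.21, limma adjusted p = 0.00155) and 2.09-fold in the hsp33 deletion (-1.07 ± 0.21, limma adjusted p = 6.04e-04). The call in the hsp31 deletion was lost without replicate 3 of that deletion (log2 -0.48, limma adjusted p = 0.0746) and within the first of the 2 slides inferred from the files (-0.48, limma adjusted p = 0.0508).

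SOL3 and SOL4 encode 6-phosphogluconolactonases, which open the lactone made by Zwf1. The 2 genes moved in opposite directions. SOL3 had a log2 signal of 11.74, 11.76 and 11.85 in the hsp31 deletion, 12.25, 12.29 and 12.28 in the hsp32 deletion and 11.87, 11.80 and 11.85 in the hsp33 deletion, against 10.70, 10.71 and 10.66 in wild type. The replicates of SOL3 were the tightest of the set in wild type and in the hsp32 and hsp33 deletions, with SDs of 0.025, 0.022 and 0.034. SOL3 rose 2.14-fold, 3.01-fold and 2.22-fold in the deletions of hsp31, hsp32 and hsp33 (log2 1.10, 1.59 and 1.15, each ± 0.072, limma adjusted p of 4.32e-08 or below).

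SOL4 had a log2 signal of 12.72, 12.43 and 12.20 in the hsp31 deletion, 11.49, 10.92 and 11.56 in the hsp32 deletion and 12.33, 12.07 and 12.03 in the hsp33 deletion, against 14.61, 14.58 and 14.70 in wild type. The hsp32 deletion arrays were the lowest, and replicate 2 of them, the array with the highest background limit and fewest detected probes, stood below its 2 companions. SOL4 fell 4.52-fold, 9.86-fold and 5.59-fold in the deletions of hsp31, hsp32 and hsp33 (log2 -2.18, -3.30 and -2.48, each ± 0.16, limma adjusted p of 1.42e-07 or below). Counted from the most negative change, it was the 14th, 13th and 15th of 5863 tested genes in those comparisons.

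GND1 and GND2 encode 6-phosphogluconate dehydrogenases, which make the second NADPH of the oxidative branch and ribulose 5-phosphate. GND1 had a log2 signal of 13.40, 13.52 and 13.66 in the hsp31 deletion, 14.94, 14.83 and 14.89 in the hsp32 deletion and 13.89, 14.20 and 14.31 in the hsp33 deletion, against 11.94, 11.94 and 12.01 in wild type. The 4 groups did not overlap, with the hsp32 deletion highest, then the hsp33 deletion, the hsp31 deletion and wild type. GND1 rose 2.95-fold, 7.57-fold and 4.51-fold in the deletions of hsp31, hsp32 and hsp33 (log2 1.56, 2.92 and 2.17, each ± 0.11, limma adjusted p of 6.77e-08 or below). It ranked 60th, 8th and 26th from the most positive change. The 2 GND1 spots differed by a median of 0.79 log2 units over the arrays, against 0.067 to 0.35 for the other 9 genes. Their rises still lay close together, at 1.47 and 1.65 in the hsp31 deletion, 2.83 and 3.01 in the hsp32 deletion and 2.08 and 2.26 in the hsp33 deletion.

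GND2 had a log2 signal of 11.42, 11.50 and 11.47 in the hsp31 deletion, 11.14, 11.59 and 10.97 in the hsp32 deletion and 11.73, 11.74 and 11.41 in the hsp33 deletion, against 14.24, 14.35 and 14.41 in wild type. The 3 deletions overlapped each other in part and all lay far below wild type. GND2 fell 7.33-fold, 8.58-fold and 6.54-fold in the deletions of hsp31, hsp32 and hsp33 (log2 -2.87, -3.10 and -2.71, each ± 0.14, limma adjusted p of 2.96e-09 or below). It was the 8th, 16th and 13th most negative change of the 5863.

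**Figure D2:**
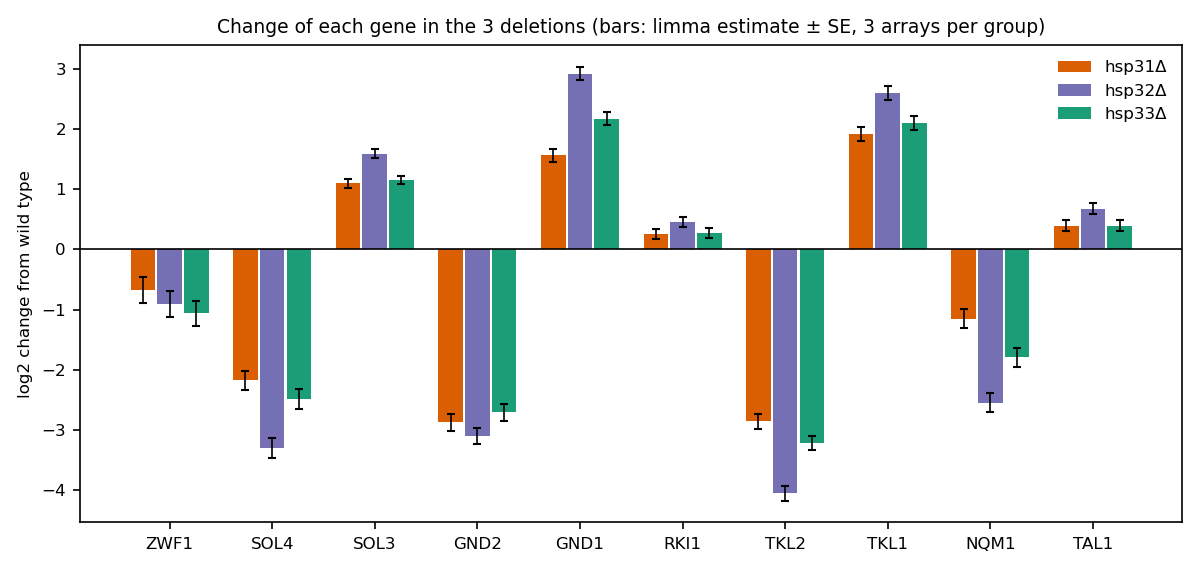
Log2 change of each gene from wild type in the 3 deletions, as the limma estimate with its SE (3 arrays per group), with the 2 genes of a pair side by side. Within each pair one gene is negative and the other positive in all 3 deletions; TKL2 reaches -4.05 and GND1 2.92 in the hsp32 deletion.

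RKI1, the ribose 5-phosphate isomerase of the non-oxidative branch, has no isozyme and had the smallest changes of the set. Its log2 signal was 9.09, 9.31 and 9.28 in the hsp31 deletion, 9.38, 9.45 and 9.48 in the hsp32 deletion and 9.16, 9.31 and 9.26 in the hsp33 deletion, against 9.02, 8.98 and 8.93 in wild type. The gap between the lowest hsp31 deletion array and the highest wild-type array was the narrowest of the set. RKI1 rose 1.19-fold in the hsp31 deletion (log2 0.25 ± 0.084, limma adjusted p = 0.0214), 1.37-fold in the hsp32 deletion (0.46 ± 0.084, limma adjusted p = 2.34e-04) and 1.20-fold in the hsp33 deletion (0.27 ± 0.084, limma adjusted p = 0.0126). In the hsp31 deletion the call was lost within the first slide and without hsp31 deletion replicate 2 or 3 or wild type replicate 2 or 3 (limma adjusted p of 0.0521 to 0.212), and in the hsp33 deletion without its replicate 2 (limma adjusted p = 0.0532).

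TKL1 and TKL2 encode transketolases, which move a short carbon fragment between sugar phosphates. TKL1 had a log2 signal of 12.91, 13.07 and 13.32 in the hsp31 deletion, 13.62, 13.78 and 13.94 in the hsp32 deletion and 13.31, 13.14 and 13.40 in the hsp33 deletion, against 11.10, 11.28 and 11.19 in wild type. The hsp31 and hsp33 deletions overlapped, and the hsp32 deletion lay above both. TKL1 rose 3.77-fold, 6.02-fold and 4.27-fold in the deletions of hsp31, hsp32 and hsp33 (log2 1.91, 2.59 and 2.09, each ± 0.12, limma adjusted p of 2.34e-08 or below). It was the 17th, 23rd and 33rd most positive change.

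TKL2 had a log2 signal of 11.45, 11.57 and 11.43 in the hsp31 deletion, 10.38, 10.42 and 10.05 in the hsp32 deletion and 11.29, 11.20 and 10.87 in the hsp33 deletion, against 14.32, 14.23 and 14.47 in wild type. The 4 groups did not overlap. TKL2 fell 7.24-fold, 16.6-fold and 9.31-fold in the deletions of hsp31, hsp32 and hsp33 (log2 -2.86, -4.05 and -3.22, each ± 0.12, limma adjusted p of 1.01e-09 or below). It was the 9th, 4th and 9th most negative change. Over the 12 arrays its SD was 1.60 log2 units, the largest of the set, and 10 of the 5863 tested genes varied more.

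TAL1 encodes transaldolase, and NQM1 its paralogue with transaldolase activity. TAL1 had a log2 signal of 12.09, 12.23 and 12.09 in the hsp31 deletion, 12.44, 12.47 and 12.33 in the hsp32 deletion and 11.98, 12.16 and 12.26 in the hsp33 deletion, against 11.79, 11.75 and 11.69 in wild type. All deletion arrays lay above wild type by a small margin. TAL1 rose 1.31-fold in the hsp31 deletion (log2 0.40 ± 0.089, limma adjusted p = 0.00188), 1.60-fold in the hsp32 deletion (0.67 ± 0.089, limma adjusted p = 1.13e-05) and 1.31-fold in the hsp33 deletion (0.39 ± 0.089, limma adjusted p = 0.00166). With the arrays scaled to a common median the change was 0.06 in the hsp31 deletion and 0.05 in the hsp33 deletion, and neither passed (limma adjusted p = 0.621 and 0.690).

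NQM1 had a log2 signal of 14.67, 14.63 and 14.47 in the hsp31 deletion, 13.40, 13.25 and 12.94 in the hsp32 deletion and 14.23, 14.03 and 13.59 in the hsp33 deletion, against 15.87, 15.79 and 15.57 in wild type. The 4 groups did not overlap, with wild type highest, then the hsp31, hsp33 and hsp32 deletions. Its spots were saturated on wild-type replicates 1 and 2 and on no deletion array, so those 2 wild-type values may be too low and its falls from wild type are lower bounds. No other member had a saturated spot. NQM1 was at least 2.22-fold, 5.84-fold and 3.46-fold lower in the deletions of hsp31, hsp32 and hsp33 (fitted log2 -1.15, -2.54 and -1.79, each ± 0.15, limma adjusted p of 3.22e-05 or below).

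The pairs were then compared within each array, as the log2 signal of SOL4, GND2, TKL2 or NQM1 minus that of its partner. Only the shift of this difference from wild type is read, not its level. All 4 pairs shifted against SOL4, GND2, TKL2 and NQM1 in every deletion, and no deletion array overlapped the wild-type arrays. Over the 4 groups the exact permutation test of 369600 assignments of the arrays gave p = 6.49e-05 for the TKL and transaldolase pairs, the smallest it can give. The same exact test gave p = 1.30e-04 for the SOL and GND pairs, and each exact p was 1.30e-04 after adjustment over the 4 pairs. A single deletion against wild type, 3 arrays against 3, cannot go below an exact p of 0.10, so no such test is given. These shifts combine the same signals as the changes above and are no separate evidence.

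The TKL pair had the most negative shifts, not tested against those of the GND pair, of -4.77, -6.64 and -5.31 log2 units in the deletions of hsp31, hsp32 and hsp33 (each ± 0.22, pooled SE, n = 3). On the 3 arrays of each group its within-array difference was -1.47, -1.51 and -1.89 in the hsp31 deletion, -3.25, -3.36 and -3.89 in the hsp32 deletion and -2.03, -1.94 and -2.52 in the hsp33 deletion, against 3.21, 2.95 and 3.28 in wild type. In the hsp32 deletion the shift was 100-fold on the linear scale. The GND pair shifted by -4.44, -6.02 and -4.88 (each ± 0.22), or 21.6-fold, 65.0-fold and 29.5-fold. The difference between its genes was -1.99, -2.02 and -2.19 in the hsp31 deletion, -3.80, -3.23 and -3.92 in the hsp32 deletion and -2.17, -2.46 and -2.90 in the hsp33 deletion, against 2.31, 2.41 and 2.39 in wild type.

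The SOL pair shifted by -3.27, -4.89 and -3.64 (each ± 0.21) in the deletions of hsp31, hsp32 and hsp33, or 9.68-fold, 29.6-fold and 12.4-fold. Its within-array difference was 0.97, 0.66 and 0.35 in the hsp31 deletion, -0.76, -1.38 and -0.72 in the hsp32 deletion and 0.46, 0.27 and 0.18 in the hsp33 deletion, against 3.91, 3.87 and 4.04 in wild type. The transaldolase pair had measured shifts of -1.55, -3.22 and -2.18 (each ± 0.21), or at least 2.92-fold, 9.32-fold and 4.54-fold. These are lower bounds, since NQM1 was saturated on 2 of the 3 wild-type arrays, and they are not ranked against the other pairs. Both genes contributed in the SOL, GND and TKL pairs, whereas in the transaldolase pair NQM1 carried most of the shift.

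**Figure D3:**
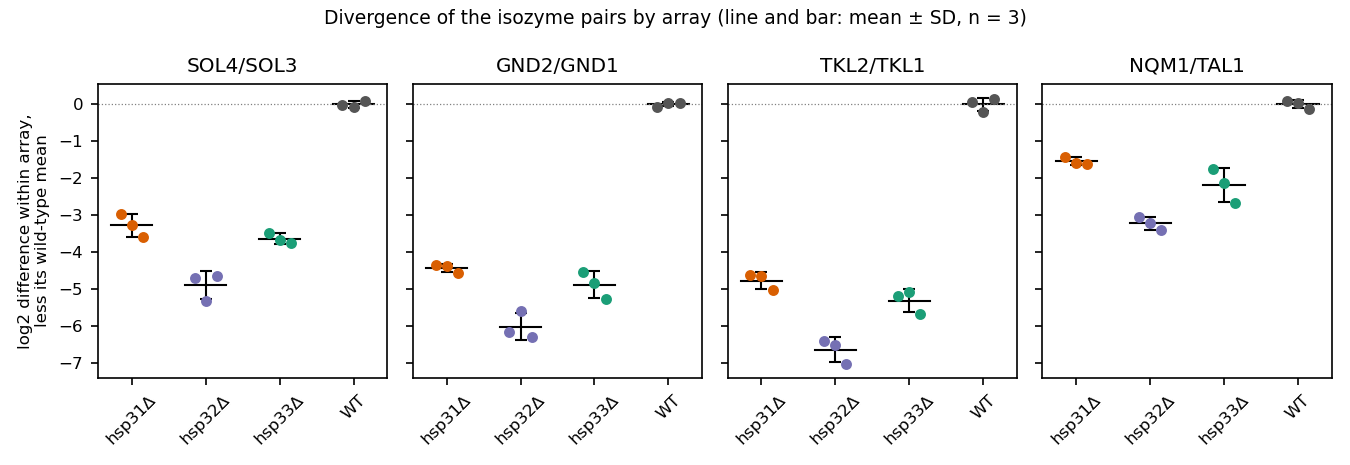
Log2 difference between the genes of a pair on each array, less its wild-type mean, with the group mean and SD (n = 3), for the hsp31, hsp32 and hsp33 deletions and wild type (WT). Every deletion array lies below the wild-type arrays in all 4 pairs, and the hsp32 deletion lies lowest in each.

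The deletions also differed from each other. In the hsp32 deletion against the hsp31 deletion, GND1 (log2 1.36 ± 0.11), TKL1 (0.68 ± 0.12), SOL3 (0.49 ± 0.072) and TAL1 (0.28 ± 0.089) were higher and NQM1 (-1.40 ± 0.15), TKL2 (-1.20 ± 0.12) and SOL4 (-1.12 ± 0.16) lower. These are 4 and 3 of the 10 members, where 19.8% of tested genes were higher and 17.8% lower. The limma adjusted p was 0.0237 for TAL1 and 4.87e-04 or below for the other 6. ZWF1 (-0.24 ± 0.21), GND2 (-0.23 ± 0.14) and RKI1 (0.21 ± 0.084) did not pass, with limma adjusted p-values of 0.402, 0.214 and 0.0659. With 75th percentile scaling RKI1 passed (0.27, limma adjusted p = 0.0101). The TAL1 call was lost under median scaling, in a fit of the 6 arrays alone and without hsp31 deletion replicate 1 or 3 or hsp32 deletion replicate 1 or 2 (limma adjusted p of 0.0531 to 0.0918). Without hsp32 deletion replicate 2, GND2 was lower by the same test (log2 -0.41, limma adjusted p = 0.0137).

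Fewer members passed between the hsp33 and the hsp31 deletion. GND1 was higher in the hsp33 deletion (log2 0.61 ± 0.11, limma adjusted p = 0.00558) and NQM1 lower (-0.64 ± 0.15, limma adjusted p = 0.0336). These are 1 and 1 of the 10 members, where 2.87% of tested genes were higher and 1.96% lower. The other 8 did not pass, with changes between -0.39 for ZWF1 and 0.18 for TKL1. On the authors' series values TKL2 passed (-0.43, limma adjusted p = 0.0445). The NQM1 call was lost on all arrays with 75th percentile scaling, median scaling or the slide as a block (limma adjusted p of 0.0579 to 0.0657) and in a fit of the 6 arrays alone (0.0816). It was also lost without hsp31 deletion replicate 1 or 2, hsp33 deletion replicate 2 or 3 or wild type replicate 2 (limma adjusted p of 0.0533 to 0.122). It was -1.07 within the first slide and -0.34 within the second. GND1 was 0.86 higher within the first slide and 0.39 within the second, and it missed the threshold in a fit of the 6 arrays alone (limma adjusted p = 0.0527).

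In the hsp33 deletion against the hsp32 deletion, TKL2 (log2 0.84 ± 0.12), SOL4 (0.82 ± 0.16) and NQM1 (0.75 ± 0.15) were higher and GND1 (-0.75 ± 0.11), TKL1 (-0.50 ± 0.12), SOL3 (-0.44 ± 0.072) and TAL1 (-0.28 ± 0.089) lower. These are 3 and 4 of the 10 members, where 9.57% of tested genes were higher and 9.14% lower. The limma adjusted p was 0.0398 for TAL1 and 0.00963 or below for the other 6. GND2 (0.39 ± 0.14), ZWF1 (-0.16 ± 0.21) and RKI1 (-0.19 ± 0.084) did not pass. With 75th percentile scaling RKI1 passed (-0.24, limma adjusted p = 0.0395). With the replicate number as a block GND2 passed (limma adjusted p = 0.0487) and TAL1 did not (limma adjusted p = 0.0537). TAL1 passed in 11 of the 24 alternatives tested. It was lost under median scaling, on the authors' series values, in the 6 arrays alone and within the second slide (limma adjusted p of 0.0509 to 0.124). It was also lost without hsp31 deletion replicate 3, hsp32 deletion replicate 1 or 2, hsp33 deletion replicate 1 or 2 or any 1 wild-type array (limma adjusted p of 0.0508 to 0.198), and TKL1 without hsp33 deletion replicate 2 (0.0516). GND2 passed under median scaling (0.43, limma adjusted p = 0.0476) and on the authors' series values (0.43, limma adjusted p = 0.0389). It also passed without hsp32 deletion replicate 2 (0.57, limma adjusted p = 0.00648) and without hsp33 deletion replicate 3 (0.50, limma adjusted p = 0.0263). Within the first slide, 1 array against 1, NQM1 differed by 0.19, SOL4 by 0.53, TKL2 by 0.49 and TKL1 by -0.23.

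As a description of the profiles over the 12 arrays, each gene was centred on its own mean and its root mean square (RMS) difference from every other named tested gene was taken, out of 5144 candidates. Within the set the closest profiles were RKI1 and TAL1 (RMS 0.106 log2 units), GND1 and TKL1 (0.279), SOL3 and TAL1 (0.362), SOL4 and TKL2 (0.397) and GND2 and TKL2 (0.414). The partners of a pair were far apart, at 2.52 for TKL1 and TKL2, 2.30 for GND1 and GND2, 1.82 for SOL3 and SOL4 and 1.19 for TAL1 and NQM1. These distances follow from the same group differences as the changes above. The profiles, here and below, were not scaled to their spread, so genes that vary little can lie close whatever their pattern. RKI1 and TAL1 had the smallest SDs of the set over the 12 arrays, at 0.18 and 0.26. The median SD of all tested genes was 0.25.

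Across all candidates TKL1 lay nearest to the ribosomal protein genes RPL21B and RPS17B and to SAH1, the S-adenosylhomocysteine hydrolase (RMS 0.121 to 0.126). GND1 lay nearest to the kinase gene SKS1, the branched-chain aminotransferase gene BAT1 and the histidine synthesis gene HIS7 (0.155 to 0.162). SOL3 lay nearest to the threonine synthase gene THR4, the ribosomal protein gene RPL10 and VRG4, a GDP-mannose transporter (0.081 to 0.089). TKL2 lay nearest to the aldehyde dehydrogenase gene ALD3, the peroxisomal thiolase gene POT1 and the hydrophilin gene SIP18 (0.234 to 0.266). GND2 lay nearest to SIP18 (0.266), SHH3 and ALD3. SOL4 was closest to PAI3, an inhibitor of proteinase A (0.163), ahead of FMP16 and the NADH dehydrogenase gene NDE2 at 0.287 and 0.289 or more. NQM1 was closest to FAT3 (0.090), the glutathione transferase gene GTT1 (0.130) and the peroxisomal catalase gene CTA1 (0.135). ZWF1 had RIP1, YPS1 and RPN1 as nearest profiles (0.173 to 0.178), TAL1 had TYE7, TRS85 and CYS4 (0.075 to 0.079) and RKI1 had PYP1, PRP2 and SET2 (0.055 to 0.066). SIP18 was below background on 1 array, ALD3 was saturated on 1 and FMP16 on 2, and NQM1 itself on 2 wild-type arrays, which limits its nearest profiles.

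The remaining pentose phosphate genes and those that use ribose 5-phosphate were counted from a list of 11. In the hsp31 deletion 6 rose, 2 fell and 3 did not pass, with a median log2 change of 0.23, where 25.7% of all tested genes rose and 30.4% fell. In the hsp32 deletion 6 rose, 3 fell and 2 did not pass (median 0.51), beside 33.3% and 36.7% of all tested genes. In the hsp33 deletion 6 rose, 2 fell and 3 did not pass (median 0.38), beside 29.0% and 32.4%. The median over all tested genes was -0.03 to -0.04. PRS4, a phosphoribosyl pyrophosphate synthetase, rose by 0.95, 1.46 and 0.96 in log2 in the deletions of hsp31, hsp32 and hsp33 (each ± 0.11). SHB17, the sedoheptulose bisphosphatase that feeds carbon into ribose synthesis, rose by 0.71, 1.18 and 0.78 (each ± 0.13). XKS1, the xylulokinase, changed by -0.88, -1.73 and -0.96 (each ± 0.10), all falls. SOL1, a relative of SOL3 and SOL4, fell with changes of -0.68, -0.74 and -0.81 (each ± 0.14), as SOL4 did and SOL3 did not. PRS3, another synthetase subunit, rose by 0.48, 0.83 and 0.51 in the deletions of hsp31, hsp32 and hsp33 (each ± 0.11). Each of these changes had a limma adjusted p of 0.00255 or below.

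Other sources of NADPH and the NAD(H) kinases were a list of 8. In the hsp31 deletion 1 rose, 3 fell and 4 did not pass, where 25.7% of all tested genes rose and 30.4% fell. In the hsp32 and in the hsp33 deletion 2 rose, 4 fell and 2 did not pass, where 33.3% and 29.0% of all tested genes rose and 36.7% and 32.4% fell. The medians were -0.20, -0.12 and -0.20 in the deletions of hsp31, hsp32 and hsp33. IDP2, the cytosolic NADP-dependent isocitrate dehydrogenase, had the largest falls, with changes of -1.10, -2.43 and -1.68 (each ± 0.15). The peroxisomal form IDP3 fell too (-0.64, -1.21 and -0.99, each ± 0.15). It was below background on 1 of the 3 hsp32 deletion arrays, replicate 2, which has the highest background limit. MAE1, the mitochondrial malic enzyme, rose by 0.79, 1.87 and 1.30 (each ± 0.12). The kinase gene UTR1 changed by -0.36, -0.31 and -0.44 in the deletions of hsp31, hsp32 and hsp33 (each ± 0.096), all falls. The kinase gene YEF1 fell in the hsp32 deletion (-0.77 ± 0.24) and in the hsp33 deletion (-0.79 ± 0.24). YEF1 was below background on 1 hsp32 deletion array, replicate 2. All of these passed at a limma adjusted p of 0.0122 or below. ALD6, the cytosolic acetaldehyde dehydrogenase that is a main NADPH source beside Zwf1, was saturated on all 12 arrays and gave no measurable change.

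**Figure D4:**
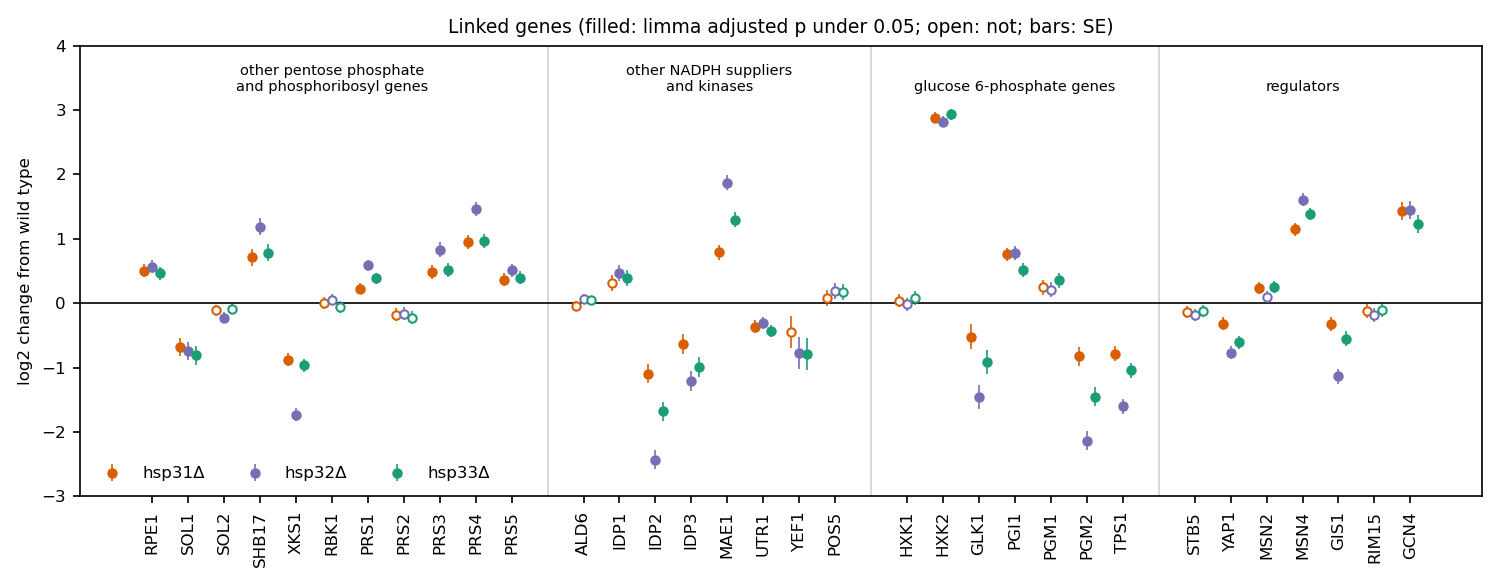
Log2 change from wild type of the genes in the 4 lists in the deletions of hsp31, hsp32 and hsp33, with its SE (3 arrays per group) as a bar; filled points passed limma's adjusted p of 0.05. HXK2 lies near 2.9 in all 3 deletions, and IDP2, PGM2, XKS1 and TPS1 are lowest in the hsp32 deletion; the points of ALD6, HXK1 and GLK1 rest on saturated spots.

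The genes that make or use glucose 6-phosphate were a list of 7. In the hsp31 and hsp32 deletions 2 rose, 3 fell and 2 did not pass, and in the hsp33 deletion 3 rose, 3 fell and 1 did not pass. Over all tested genes 25.7%, 33.3% and 29.0% rose and 30.4%, 36.7% and 32.4% fell in the deletions of hsp31, hsp32 and hsp33, and nothing particular to these 7 genes is read from their counts. HXK2, the hexokinase of glucose-grown cells, rose by 2.88, 2.82 and 2.93 (each ± 0.087). PGI1, the isomerase that leads to glycolysis, rose by 0.76 ± 0.11 in the hsp31 deletion. Its mean log2 signal was 13.51, 13.54 and 13.28 in the deletions of hsp31, hsp32 and hsp33, against 12.76 in wild type. PGM2, the phosphoglucomutase of the path to glycogen and trehalose, changed by -0.83, -2.14 and -1.45 (each ± 0.15) and TPS1, the trehalose 6-phosphate synthase, by -0.79, -1.60 and -1.04 (each ± 0.12), all falls. GLK1, the glucokinase, was at least 1.43-fold, 2.76-fold and 1.89-fold lower in the deletions of hsp31, hsp32 and hsp33, a bound, since it was saturated on every wild-type array. All of these passed at a limma adjusted p of 0.0304 or below. HXK1 was saturated on all 3 arrays of the hsp31 deletion, the hsp33 deletion and wild type and on 1 of the hsp32 deletion, so no change is given for it.

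Of 7 regulators with known ties to these genes, 3 rose, 2 fell and 2 did not pass in the hsp31 and in the hsp33 deletion, and 2 rose, 2 fell and 3 did not pass in the hsp32 deletion. These counts are not read as particular to the list either, with 25.7%, 33.3% and 29.0% of all tested genes higher and 30.4%, 36.7% and 32.4% lower in the deletions of hsp31, hsp32 and hsp33. GCN4, the activator of amino acid synthesis genes, rose by 1.43, 1.45 and 1.23 (each ± 0.14) in the deletions of hsp31, hsp32 and hsp33. MSN4, one of the general stress activators, rose by 1.15, 1.61 and 1.38 (each ± 0.098). GIS1, an activator of post-diauxic genes, changed by -0.32, -1.13 and -0.55 (each ± 0.11), and YAP1, the oxidative stress activator, by -0.32, -0.77 and -0.61 (each ± 0.10), all falls at a limma adjusted p of 0.0266 or below. STB5, known as an activator of pentose phosphate genes under oxidative stress, did not pass in any deletion (-0.13, -0.18 and -0.12, each ± 0.091, limma adjusted p = 0.227, 0.0876 and 0.258).

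The authors' deposited table gives a ratio of deletion to wild type for each spot, and it also has ZWF1, SOL4, GND2, TKL2 and NQM1 lower in all 3 deletions. In the authors' deposited table the 2 TKL2 spots were 10.2-fold and 11.3-fold lower in the hsp31 deletion, 25.4-fold and 27.1-fold in the hsp32 deletion and 14.4-fold and 15.2-fold in the hsp33 deletion. For SOL4 the authors' deposited table has the spots 6.23-fold and 6.93-fold lower in the hsp31 deletion, 14.3-fold and 24.2-fold in the hsp32 deletion and 8.04-fold and 8.33-fold in the hsp33 deletion. The 2 spots of SOL4 thus differed most in the hsp32 deletion. For both genes these falls are larger than those fitted here. The same held for ZWF1, GND2 and NQM1 in all 3 deletions. The fitted falls in the deletions of hsp31, hsp32 and hsp33 were 7.24-fold, 16.6-fold and 9.31-fold for TKL2 and 4.52-fold, 9.86-fold and 5.59-fold for SOL4. The cause of this difference in size was not tested. Ratios above 1 in the authors' deposited table have lost their decimal mark, so no size is given from it for genes that rose. The titles of the authors' deposited comparisons carry p0.05, and all spots of members listed there have an unadjusted p under 0.05. TAL1 is not listed there for any deletion, and RKI1 has only 1 of its 2 spots listed for the hsp33 deletion. Spots that are absent may thus have missed that limit in the authors' test, so the rise of TAL1 fitted here has no counterpart there.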

How the data were processed

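The one-colour arrays, 12 in all and 3 per group, were grouped by the sample labels. The authors' deposited scanner files give an intensity for the foreground and the local background of every spot, as scanned. They also give the deposited percent of pixels at saturation. The authors' deposited series values equal the median foreground intensity in all 15736 spots. The authors' deposited comparisons list a deletion to wild type ratio (unit: other) and a p-value, not adjusted, for each spot they hold. The test behind that p-value is not given in the sources used here, like the scanner software and the genome build. RNA was extracted with Qiagen kits and labelled by Agilent's Low Input Quick Amp method, per the labels' protocols.

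The planned processed signal was not among the columns, so the planned fallback was used. It is normexp background correction (offset 50, all spots), quantile normalization over 12504 gene spots, log2 and averaging of both spots of each probe. The background limit was set per array at 2 SD above the median of the 77 negative control spots, after subtraction, and a spot was saturated at 50% saturated pixels. Genes past that limit on every array of 1 or more groups, 5863 in all, were tested with limma 3.58.1 in R 4.3.3 (4 group means, 8 residual degrees of freedom, prior 5.53), with Benjamini-Hochberg adjustment within each of 6 comparisons at 0.05. Pair differences were tested in Python 3.11.15 with numpy 2.4.6. The scripts were tested on simulated data. The members, lists and tests were chosen with earlier results of these data known. Named genes are the 10 members, the targeted genes with URA3, up to 4 genes per list and comparison with the largest change past the threshold, and the 3 nearest profiles of each member. A listed gene named for 1 deletion may be given for the others too. The number of arrays limits the precision. Slides were inferred from print-grid offsets in the files, and each of the 2 holds all 4 groups. The numbers of the replicates did not pair the samples by the rule used: after removal of group means, same-numbered arrays had a mean r of 0.035, -0.033 and -0.013. Probe sequences and cross-hybridization between paralogues were not analysed here. Alternatives covered scaling, background correction, the authors' series values, dim-probe filters, slide, replicate block, arrays in the fit, the variance model and each array left out.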

Additional observations from a re-analysis of the deposited data

How the results depend on the processing

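Against wild type no member changed direction under any alternative run, and SOL3, SOL4, GND1, GND2, TKL1, TKL2 and NQM1 passed under all that could be tested. Scaling to the 75th percentile moved the median change of all genes in the hsp31, hsp32 and hsp33 deletions to 0.12, 0.17 and 0.15, against -0.03 or -0.04 with quantile normalization. Within slide 1, 2129 genes were called in the hsp31 deletion against wild type. For the hsp33 against the hsp31 deletion 283 genes were called, against 175 with median scaling, 155 with the slide as a block, 98 in a fit of the 6 arrays alone and 94 to 399 with 1 array left out. The 2 members called there became 1 with 75th percentile scaling, median scaling or the slide as a block, 0 in the 6 arrays alone and 1 to 2 with 1 array left out. For the hsp33 against the hsp32 deletion 1097 genes were called, and 505 to 1350 with 1 array left out. The exact pair test passed in all 76 tests run, 4 pairs under each alternative, with adjusted p between 1.30e-04 and 0.00174. The value of 0.00174 came from the replicate block, where it is the smallest that the exact test can give. The range therefore does not rank the alternatives. The SOL pair shift in the hsp31, hsp32 and hsp33 deletions was -3.67, -5.24 and -4.01 with 75th percentile or median scaling and -3.61, -5.17 and -3.95 with cyclic loess. In the hsp33 deletion the GND pair shifted by -5.25, the TKL pair by -5.77 and the transaldolase pair by -2.65 within slide 1, and the TKL pair by -4.94 within slide 2. Changes of sign were limited to small differences between deletions that passed no test. In the hsp32 against the hsp31 deletion ZWF1 was 0.18 within slide 2. In the hsp33 against the hsp31 deletion TAL1 was 0.013 with 75th percentile scaling, 0.011 with cyclic loess, 0.044 on the authors' series values, 0.021 with the slide as a block, 0.098 within slide 1 and -0.066 to 0.072 with 1 array left out, and RKI1 was -0.024 with cyclic loess, -0.037 within slide 2 and -0.048 to 0.063 with 1 array left out. There GND2 was -0.046 within slide 1, and within slide 2 SOL3 was -0.015 and TKL1 -0.094. In the hsp33 against the hsp32 deletion ZWF1 was 0.0098 within slide 1, 0.089 without hsp32 deletion replicate 2 and -0.38 without its replicate 3, its range with 1 array left out. The cause of these changes was not tested. The replicate block changed no call of a member other than those of GND2 and TAL1 given above. By correlation, 6 of the 12 arrays were closest to same-numbered arrays.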
